A study of Homo sapiens with 57 samples.

Results

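DNA replication and deoxynucleotide synthesis genes were represented by 11 transcripts of 9 genes, out of 228715 transcripts listed in each of 9 messenger RNA libraries. The cells were HCT116, a line established from a human colorectal carcinoma. The transcripts were chosen by name, as a list of transcript identifiers paired with gene symbols: 1 transcript each of MCM2, MCM4, MCM5, MCM6, MCM7, RRM1 and TYMS, and a pair each of PCNA and RRM2. All 11 passed the filter on low counts, which kept 78478 transcripts. The libraries formed 3 groups of 3, named for the form of the CTR1 region of Spt5 that the cells were induced to express: TE7, TA7 or WT. The labels do not spell out what TE7 and TA7 stand for.

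All 3 groups shared the same background. Per the labels, the cells carried Spt5 fused to an HA tag and a dhfr degron (Spt5-HA-dhfr), were kept without trimethoprim, the ligand that stabilises such a degron, and were grown with hygromycin, G418 and blasticidin. The pCW57 vector supplied residues 1 to 820 of Spt5 with an Avi tag, switched on by doxycycline (2 ug/ml, 24 hours). Spt5 is an elongation factor of RNA polymerase II. The labels do not say whether the cells of a form were a single clone, so the form and any difference between cell populations cannot be told apart. RNA was selected with oligo-dT, and the libraries held 68578355 to 73794335 estimated reads in TE7, 65723341 to 90805283 in TA7 and 64364751 to 67628672 in WT.

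Before DNA is copied, the MCM proteins are loaded on origins as a ring-shaped complex, which later unwinds the template ahead of the polymerases. PCNA is the sliding clamp that keeps polymerases on the template. Ribonucleotide reductase, built from the large catalytic subunit RRM1 and the small radical-bearing subunit RRM2, turns ribonucleotides into deoxyribonucleotides, and TYMS, thymidylate synthase, makes the thymidine nucleotide from dUMP. Many of these genes are known targets of the E2F factors and are highly expressed in dividing cells such as tumour lines.

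The transcripts differed widely in level. Levels are given in TPM, a scale per effective length with a fixed total in each library, on which genes can be compared. The main PCNA transcript (ENST00000379143) was the most abundant, at 209 to 267 TPM over the 9 libraries. MCM7 (125.5 to 142 TPM) came next, apart from its neighbours. TYMS (103 to 124 TPM), the main RRM2 transcript (ENST00000304567, 85.2 to 117 TPM), RRM1 (40.2 to 103 TPM) and MCM2 (52.9 to 67.5 TPM) followed in order of their means, each overlapping the next. MCM6 (27.8 to 34.2 TPM) stood apart from both its neighbours. The second PCNA transcript (ENST00000379160, 10.9 to 17.8 TPM) and MCM5 (9.8 to 15.2 TPM) overlapped each other. The second RRM2 transcript (ENST00000360566, 2.32 to 6.55 TPM) and MCM4 (0.845 to 1.89 TPM) were the lowest, each apart from its neighbours. The tables do not name the other transcripts of these genes, so a low level of a listed transcript is not the level of its gene. Over the 9 libraries the highest TPM was 2.57 times the lowest for RRM1, 2.24 times for MCM4 and 2.82 times for the second RRM2 transcript, but 1.63 times or less for the other 8.

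**Figure D1:**
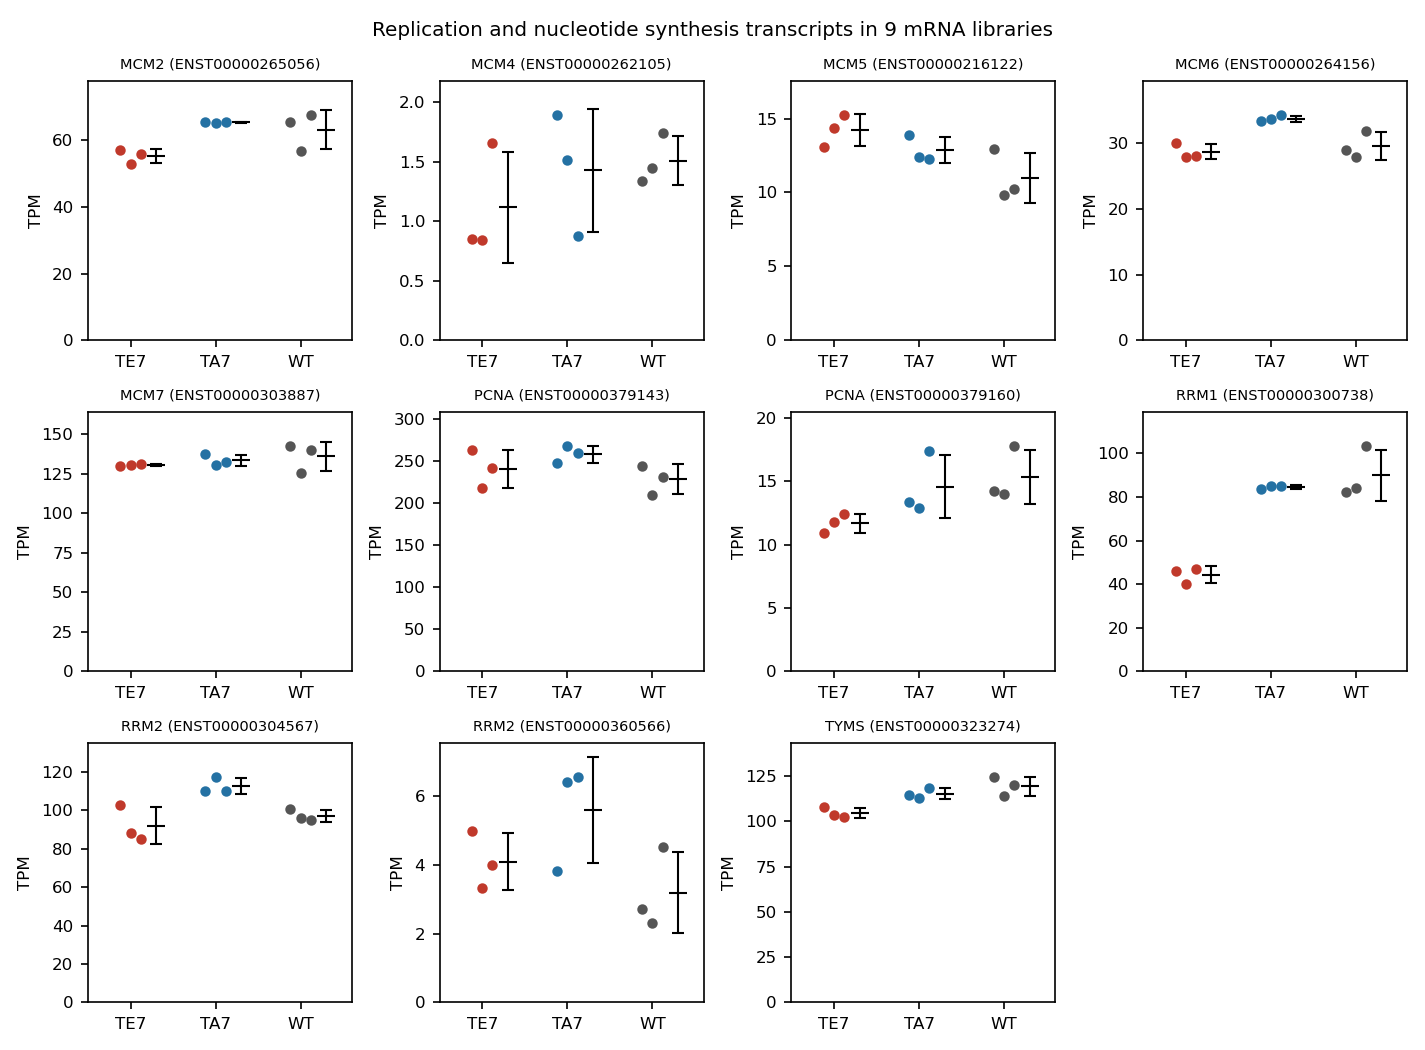
Level in TPM (y axis, from 0) of each of the 11 transcripts in the TE7, TA7 and WT libraries. Points are libraries, and the bar beside them is the mean with its SD (n = 3). RRM1 lies at 40.2 to 46.9 TPM in TE7 and at 82.2 TPM or more in every other library.

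In cells with the TE7 form, the listed RRM1 transcript was at about 0.52 of its level in WT, while the 10 other transcripts did not pass the test. Of the 11 transcripts, 1 was lower and 0 were higher in TE7 than in WT, where 9.4% of all 78478 transcripts were called in either direction (edgeR's quasi-likelihood model, p adjusted by Benjamini and Hochberg's method, threshold 0.05). Against TA7 the same transcript was the 1 called, where 3.07% of all transcripts were. In TA7 vs WT 0 of 11 were called by edgeR, where 0.0612% of all were called. DESeq2 also called 0 of 11, beside 1166 higher and 895 lower among the 142131 transcripts it tested. An unadjusted p under 0.05 in edgeR was found for 1 of 11, beside 6065 of all 78478. Calls were more frequent among abundant transcripts: 33.7% of the 3688 with a mean of at least 50 CPM (counts scaled to library size) were called in TE7 vs WT, beside 1 of the 7 members at that level. In TE7 vs TA7 it was 14.5% beside 1 of 7, and in TA7 vs WT 0.298% beside 0 of 7. A count of 1 of 11 in TE7 vs WT is near the background share. The median log2 change of the members was -0.05 in TE7 vs WT, beside -0.02 for all tested transcripts. It was -0.12 in TE7 vs TA7, beside -0.02, and -0.06 in TA7 vs WT, beside 0 for all. For the 3688 transcripts of at least 50 CPM, which include 7 of the 11 members, the median was higher in the comparisons of TE7. It was 0.08 in TE7 vs WT and 0.09 in TE7 vs TA7, beside -0.01 in TA7 vs WT. Differences between these medians and those of the members were not tested.

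By direction, 4.81% of all transcripts were called lower and 4.59% higher in TE7 vs WT, where 1 member was lower and 0 were higher. In TE7 vs TA7, 1.78% were called lower and 1.29% higher, beside 1 and 0 members. In TA7 vs WT, 0.0204% were called lower and 0.0408% higher, beside 0 and 0 members. The libraries of both groups did not overlap in TPM for 4 members in TE7 vs WT, beside 33% of all transcripts. Of these, RRM1, TYMS and the second PCNA transcript lay below (16.7% of all) and MCM5 above (16.3% of all). In TE7 vs TA7 the groups were apart for 6 members, beside 32.4% of all, with 6 below (20.8% of all) and 0 above (11.6% of all). In TA7 vs WT they were apart for 3, beside 14.4% of all, with 0 below (4.32% of all) and 3 above (10.1% of all), namely MCM6 and the main transcripts of PCNA and RRM2. In CPM the groups were apart for 2 members in TE7 vs WT (32.9% of all), 3 in TE7 vs TA7 (31.5% of all) and 1 in TA7 vs WT (14.1% of all).

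**Figure D2:**
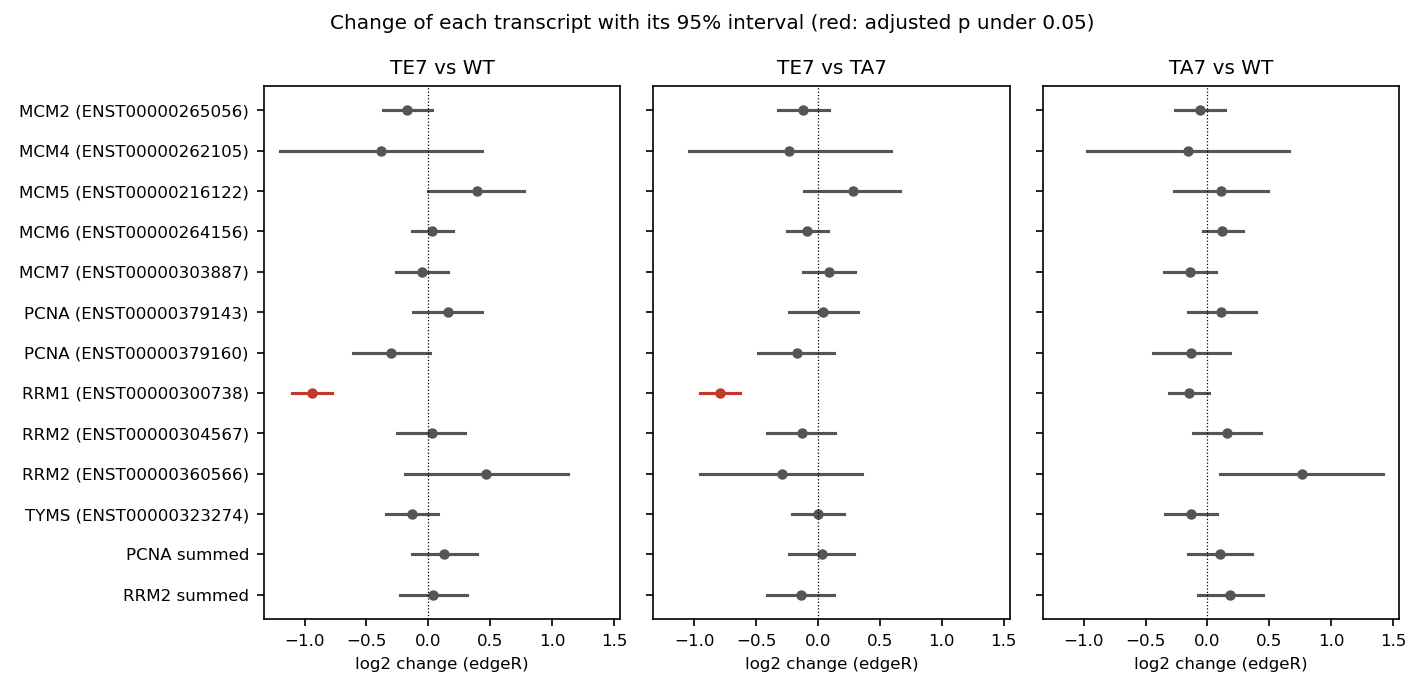
Fitted log2 change (x axis) of each transcript and of the summed PCNA and RRM2 pairs in TE7 vs WT, TE7 vs TA7 and TA7 vs WT, with 95% intervals as lines (edgeR, n = 3 per group). RRM1 is at -0.94 and -0.79 in the comparisons of TE7, the only red points, while of the other intervals those of MCM5 in TE7 vs WT, narrowly, and of the second RRM2 transcript in TA7 vs WT lie above 0, both with an adjusted p above 0.05.

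The promoter windows of RefSeq (build GRCh38.p14, 250 bases before to 50 after a start) were matched by symbol and used for 7 of the 9 genes, all but MCM4 and MCM5, with 11 windows in all. No window matched MCM5. The chromosome of MCM4 was left out for the members by choice, but not for the background of all windows. Since many genes of replication are known E2F targets, the windows were searched on both strands for exact spellings of an E2F site. These were TTTCCCGC, TTTGGCGC, TTTCGCGC and TTTGCCGC, and other spellings were not searched. The CCAAT box was searched as well. The E2F letters were in at least 1 window of 5 of the 7 genes, namely MCM2, MCM6, MCM7, PCNA and TYMS. Counted by window, they were in 5 of the 11 (45.5%), beside 3.31% of all 35116 windows of that length. They were in none of the windows of RRM1 or RRM2. That does not mean that these windows lack an E2F site. The RRM1 window, for example, holds gttcccgc, which differs from TTTCCCGC in its first letter alone. Whether the letters go with the changes in mRNA was not tested. CCAAT was in a window of 5 of the 7 genes and in 9 of the 11 windows (81.8%), beside 34.6% of all windows. MCM7, PCNA and RRM2 had more than 1 window each, and some windows of MCM7 and of RRM2 share bases. The shares by window therefore count some genes and bases repeatedly, and the share by gene was not computed over all genes. Windows are shown for RRM1, the transcript that fell, for RRM2, its partner in the enzyme, and for MCM6, a member with several E2F matches that was not called. They are at chr11:4094435-4094734 on the plus strand for RRM1, chr2:10122489-10122788 on the plus strand for RRM2 and chr2:135876394-135876693 on the minus strand for MCM6. Capitals mark E2F or CCAAT letters on either strand, and neighbouring E2F matches on opposite strands overlap.
RRM1 promoter window: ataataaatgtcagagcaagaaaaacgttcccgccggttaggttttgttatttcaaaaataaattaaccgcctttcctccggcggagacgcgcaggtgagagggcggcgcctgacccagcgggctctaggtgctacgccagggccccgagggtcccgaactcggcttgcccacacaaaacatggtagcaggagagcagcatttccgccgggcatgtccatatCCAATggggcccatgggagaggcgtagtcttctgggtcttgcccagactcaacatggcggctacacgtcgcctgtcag
RRM2 promoter window: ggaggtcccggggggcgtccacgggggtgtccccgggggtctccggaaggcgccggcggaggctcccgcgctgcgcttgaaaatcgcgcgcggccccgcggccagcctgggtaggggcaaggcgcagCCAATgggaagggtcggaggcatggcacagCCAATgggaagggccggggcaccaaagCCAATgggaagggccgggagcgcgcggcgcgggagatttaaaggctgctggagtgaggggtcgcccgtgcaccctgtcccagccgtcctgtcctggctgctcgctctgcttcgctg
MCM6 promoter window: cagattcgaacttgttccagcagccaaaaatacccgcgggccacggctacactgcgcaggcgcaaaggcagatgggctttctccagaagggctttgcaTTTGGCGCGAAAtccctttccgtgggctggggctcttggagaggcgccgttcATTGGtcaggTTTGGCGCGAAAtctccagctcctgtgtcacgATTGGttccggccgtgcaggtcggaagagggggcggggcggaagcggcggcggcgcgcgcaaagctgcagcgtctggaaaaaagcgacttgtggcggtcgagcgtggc
MCM6 held 4 E2F matches, in 2 pairs that overlap by 4 bases, and 2 CCAAT boxes. RRM1 held 1 CCAAT box and the RRM2 window shown held 3. A match is a description of letters and not a bound site, and the mRNA tables carry no measure of binding.

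RRM1 (ENST00000300738, 3142 bases) encodes the large subunit of ribonucleotide reductase, which holds the active site and the sites where nucleotides regulate the enzyme. It was at 46.3, 40.2 and 46.9 TPM in the TE7 libraries, at 83.7, 85.2 and 85 TPM in the TA7 libraries, and at 82.2, 84.4 and 103 TPM in the WT libraries. Every TE7 library was low, with no overlap with either other group. These values rest on 7103 to 8321 estimated reads per library in TE7, 12910 to 17540 in TA7 and 12663 to 15623 in WT. On the scale of the test, CPM with TMM factors, the mean was 109.7 CPM in TE7, 189.8 in TA7 and 210.9 in WT. The fitted log2 change in TE7 vs WT was -0.94 ± 0.07 (SE), with a 95% interval of -1.1 to -0.78 and an edgeR adjusted p of 0.000526. In linear terms TE7 was at 0.52 of WT (0.465 to 0.581). In bulk RNA, fewer cells that express a gene and less RNA per cell cannot be told apart.

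RRM1 also fell relative to TA7, with a log2 change of -0.79 ± 0.07 (SE), a 95% interval of -0.95 to -0.63 and an edgeR adjusted p of 0.00383. That contrast is the direct test of whether the TE7 and TA7 forms differ. The comparisons share the TE7 libraries, so they are not independent. Between TA7 and WT the log2 change was -0.15 ± 0.07 (SE), with a 95% interval of -0.31 to 0.01 and an edgeR adjusted p of 0.665. The TA7 libraries lay at 187.9 to 193.2 CPM, just below the lowest WT library at 193.9 CPM, and in TPM these groups overlapped. The groups did not overlap in CPM for 14.1% of all tested transcripts in TA7 vs WT. RRM1 was called in TE7 vs WT and in TE7 vs TA7 under all 20 other settings tried, which left out each library in turn or changed the scaling, filter, test or model, with log2 changes of -1.01 to -0.88 and -0.93 to -0.74.

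The size of the RRM1 fall was uncommon among abundant transcripts. RRM1 was singled out from the members by this same fall, so the shares below describe it and are not a test. Of the 3688 transcripts of at least 50 CPM, 100 (2.71%) had a log2 change in TE7 vs WT as low as that of RRM1 or lower, and 88 (2.39%) in TE7 vs TA7. In TA7 vs WT, 764 (20.7%) lay at or below the RRM1 value. Ranked by p over all 78478 tested transcripts, RRM1 was at place 149 in TE7 vs WT and at place 72 in TE7 vs TA7.

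**Figure D3:**
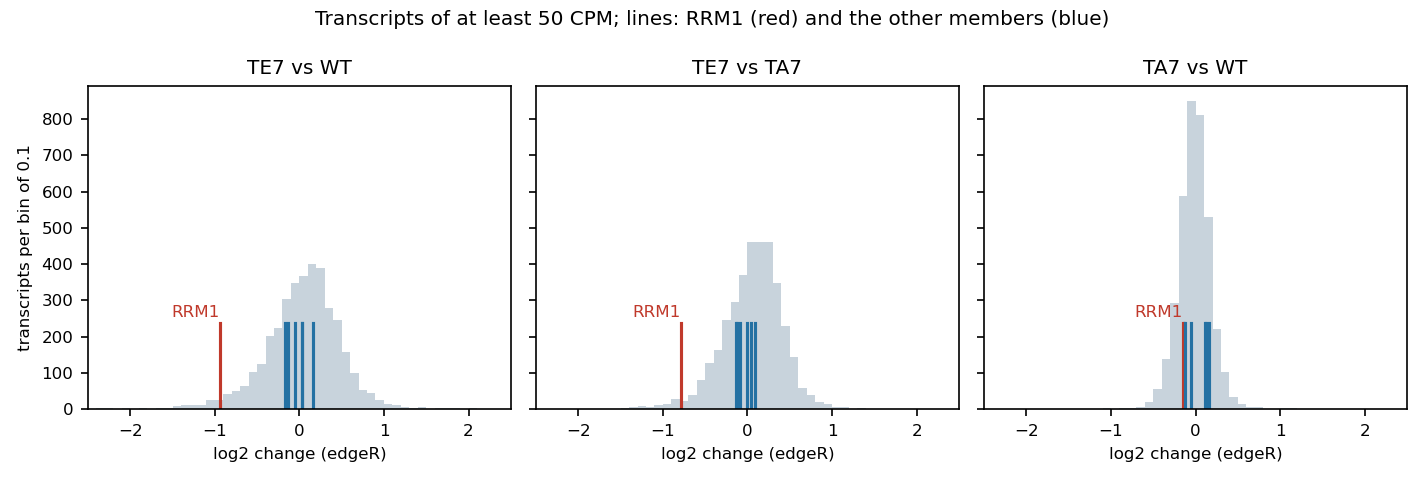
Number of transcripts (y axis) of at least 50 CPM in each bin of log2 change (x axis, bins of 0.1), for TE7 vs WT, TE7 vs TA7 and TA7 vs WT. Lines mark RRM1 (red) and the 6 other members at that level (blue). The blue lines sit within the bulk of each distribution. In TE7 vs TA7 they run from -0.13 to 0.09, where the median of the plotted transcripts is 0.09. RRM1 sits in the lower tail of the comparisons of TE7, with 2.71% and 2.39% of transcripts at or below it.

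RRM2 encodes the small subunit of the same enzyme, which carries the tyrosyl radical and whose protein is known to be made and destroyed with the cell cycle. Its main transcript (ENST00000304567, 3258 bases) was at 103, 88.2 and 85.2 TPM in TE7, at 110, 117 and 110 TPM in TA7, and at 101, 95.9 and 95.1 TPM in WT. In TPM TE7 and WT overlapped, and the TA7 libraries were the highest. In CPM TE7 replicate 1, at 256.2, and WT replicate 1, at 256.6, lay inside the TA7 range of 234.4 to 257.5. With the reads of both listed RRM2 transcripts summed, which does not depend on how shared reads were divided between them, the log2 change in TE7 vs WT was 0.04 ± 0.12 (SE), with an edgeR adjusted p of 0.872. Its 95% interval of -0.23 to 0.31 lay above that of RRM1. In TE7 vs TA7 the sum had a log2 change of -0.14 ± 0.12 (SE), a 95% interval of -0.41 to 0.13 and an edgeR adjusted p of 0.598. In TA7 vs WT it was 0.18 ± 0.12 (SE), with a 95% interval of -0.08 to 0.45 and an edgeR adjusted p of 0.819.

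The second RRM2 transcript (ENST00000360566, 3673 bases) was at 4.97, 3.33 and 3.98 TPM in TE7, at 3.83, 6.42 and 6.55 TPM in TA7, and at 2.72, 2.32 and 4.53 TPM in WT. WT replicate 3 and TA7 replicate 1 lay inside the range of the other groups. It had the largest positive log2 change of any member, 0.76 ± 0.29 (SE) in TA7 vs WT, with an unadjusted p of 0.0296 that became 0.58 after adjustment in edgeR. In TE7 vs WT it was 0.47 ± 0.29 (SE), with an edgeR adjusted p of 0.364 and a range of 0.28 to 0.72 with 1 library left out at a time. Its share of the TPM of the pair was 4.24% ± 0.52 in TE7, 4.72% ± 1.2 in TA7 and 3.18% ± 1.2 in WT (SD, n = 3 each). Those shares overlapped between all groups, with exact two-sided permutation p of 0.3 in TE7 vs WT, 0.6 in TE7 vs TA7 and 0.2 in TA7 vs WT.

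The ratio of RRM1 to the summed RRM2 transcripts, in TPM, set the subunits of the enzyme beside each other within each library. It was 0.429, 0.439 and 0.526 in the TE7 libraries, 0.688, 0.73 and 0.732 in the TA7 libraries, and 0.794, 0.859 and 1.04 in the WT libraries. The groups were ordered TE7, TA7, WT with no overlap. Between TA7 and WT, RRM1 itself overlapped in TPM. Summed RRM2 was at 114.2 to 123.7 TPM in TA7 and at 98.21 to 103.5 TPM in WT. In CPM it overlapped, at 250.6 to 273.7 in TA7 and 208.5 to 264.6 in WT. Neither RRM1 nor summed RRM2 was called in TA7 vs WT, with edgeR adjusted p of 0.665 and 0.819. The exact two-sided permutation p was 0.1 in each of the 3 comparisons (n = 3 per group), the smallest that 3 against 3 libraries allow, and 0.1 after adjustment over them. This ratio was chosen after the values of RRM1 had been seen. It is a ratio of mRNA, of the listed transcripts alone.

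**Figure D4:**
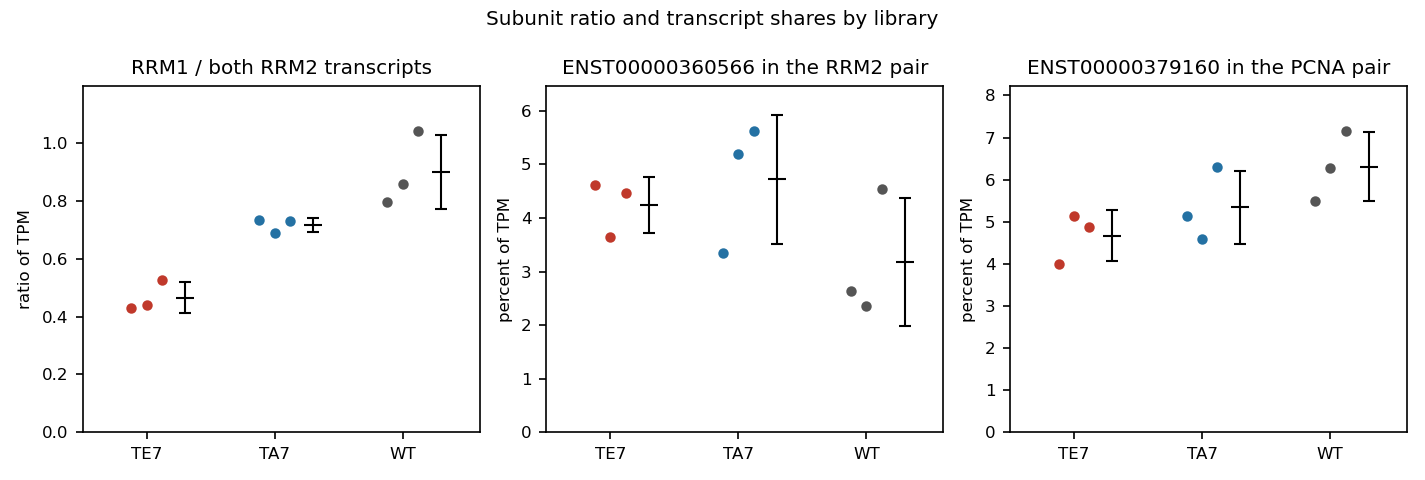
Ratio of RRM1 to both RRM2 transcripts in TPM (left), and percent of TPM that the second transcript holds in the RRM2 pair (middle) and in the PCNA pair (right), for each library (points) with the mean and SD beside them (n = 3). The RRM1 to RRM2 ratio is 0.526 or less in TE7 and 0.688 or more in all other libraries.

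TYMS (ENST00000323274, 1613 bases) encodes thymidylate synthase. It was at 108, 104 and 103 TPM in TE7, at 115, 113 and 119 TPM in TA7, and at 124, 114 and 120 TPM in WT. The TE7 libraries were the lowest in TPM, without overlap with TA7 or WT. In CPM they overlapped with both. The TA7 libraries, at 125.8 to 131 CPM, and WT replicates 2 and 3, at 130.7 and 130.1 CPM, lay inside the TE7 range of 122.9 to 133.5 CPM. WT replicate 1 stood above all 8 others, at 163 CPM. The log2 change was -0.13 ± 0.09 (SE) in TE7 vs WT, with an edgeR adjusted p of 0.428 and a 95% interval of -0.34 to 0.08, and it ran from -0.19 to -0.01 with 1 library left out at a time. It was 0 ± 0.09 (SE) in TE7 vs TA7, with an edgeR adjusted p of 0.994 and an interval of -0.21 to 0.21.

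The listed MCM transcripts, of subunits of the replicative helicase, showed no call in any of the 3 comparisons with all 9 libraries. MCM2 (ENST00000265056, 3434 bases) was at 57.1, 52.9 and 55.9 TPM in TE7, at 65.4, 65.2 and 65.5 TPM in TA7, and at 65.4, 56.6 and 67.5 TPM in WT. The TE7 libraries lay below every TA7 library and overlapped with WT through WT replicate 2. Its log2 change was -0.17 ± 0.09 (SE) in TE7 vs WT, with a 95% interval of -0.37 to 0.03 and an edgeR adjusted p of 0.262. Leaving out 1 library at a time moved it between -0.26 and -0.07. In TE7 vs TA7 it was -0.12 ± 0.09 (SE), with an edgeR adjusted p of 0.55.

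MCM6 (ENST00000264156, 3753 bases) was at 30, 27.9 and 28.1 TPM in TE7, at 33.3, 33.6 and 34.2 TPM in TA7, and at 28.9, 27.8 and 31.9 TPM in WT. In TPM the TA7 libraries were the highest and TE7 overlapped with WT. In CPM WT replicate 1, at 90.41, lay inside the TA7 range of 89.16 to 91.37. The MCM6 log2 change of 0.03 ± 0.07 (SE) in TE7 vs WT had a 95% interval of -0.13 to 0.2, among the narrowest of the members. MCM7 (ENST00000303887, 2467 bases) was at 129.7, 130.2 and 131.1 TPM in TE7, at 137, 130.4 and 132 TPM in TA7, and at 142, 125.5 and 140.2 TPM in WT. These groups overlapped, with a log2 change of -0.05 ± 0.09 (SE) and a 95% interval of -0.26 to 0.16 in TE7 vs WT. The edgeR adjusted p in TE7 vs WT was 0.841 for MCM6 and 0.815 for MCM7.

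MCM5 (ENST00000216122, 3458 bases), another subunit of the ring, was at 13.1, 14.4 and 15.2 TPM in TE7, at 13.9, 12.4 and 12.3 TPM in TA7, and at 12.9, 9.8 and 10.3 TPM in WT. Every TE7 library was above every WT library in TPM, narrowly so for WT replicate 1. In CPM that library, at 42.1, lay inside the TE7 range of 38.8 to 45.1, apart from 28.2 and 28 CPM in the other WT libraries. The log2 change in TE7 vs WT was 0.39 ± 0.16 (SE), with an unadjusted p of 0.0481 and an edgeR adjusted p of 0.194. Without WT replicate 1 it was 0.61, with an edgeR adjusted p of 0.0114, and it then passed the threshold. Over all 20 other settings the log2 change was 0.29 to 0.61 and the adjusted p 0.00913 to 0.416.

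MCM4 (ENST00000262105, 4183 bases) was the least abundant member, with 190 to 438 estimated reads per library. It was at 0.852, 0.845 and 1.66 TPM in TE7, at 1.89, 1.52 and 0.875 TPM in TA7, and at 1.34, 1.45 and 1.74 TPM in WT. TE7 replicate 3 and TA7 replicate 3 stood apart from the other libraries of their groups, and the groups overlapped. The log2 change of -0.38 ± 0.35 (SE) in TE7 vs WT had a 95% interval of -1.2 to 0.43 and an edgeR adjusted p of 0.573. That interval includes the log2 change of RRM1, -0.94. Leaving out 1 library at a time moved the MCM4 value between -0.75 and -0.21.

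Set side by side per effective length, the 5 listed MCM transcripts kept a similar order in all libraries. MCM7 held 56.7% ± 0.68 of their summed TPM in TE7, 54% ± 0.45 in TA7 and 56.4% ± 0.58 in WT (SD, n = 3 each). Each TA7 share of MCM7, at 54.5% or less, lay below each share of the other groups. MCM2 held 24.1% ± 0.7 in TE7, 26.5% ± 0.44 in TA7 and 26.2% ± 0.6 in WT, so each TE7 share, at 24.8% or less, lay below each share of the other groups. MCM5 held 6.2% ± 0.47 in TE7, 5.21% ± 0.26 in TA7 and 4.56% ± 0.55 in WT, with each TE7 share above each other one. MCM6 held 12.5% ± 0.47 in TE7, 13.7% ± 0.42 in TA7 and 12.3% ± 0.67 in WT, with each TA7 share, at 13.2% or more, above each other one. How often the shares of other transcripts lie apart in this way was not computed. These shares are a description of the listed transcripts and were not tested, and they are not the balance of the proteins.

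**Figure D5:**
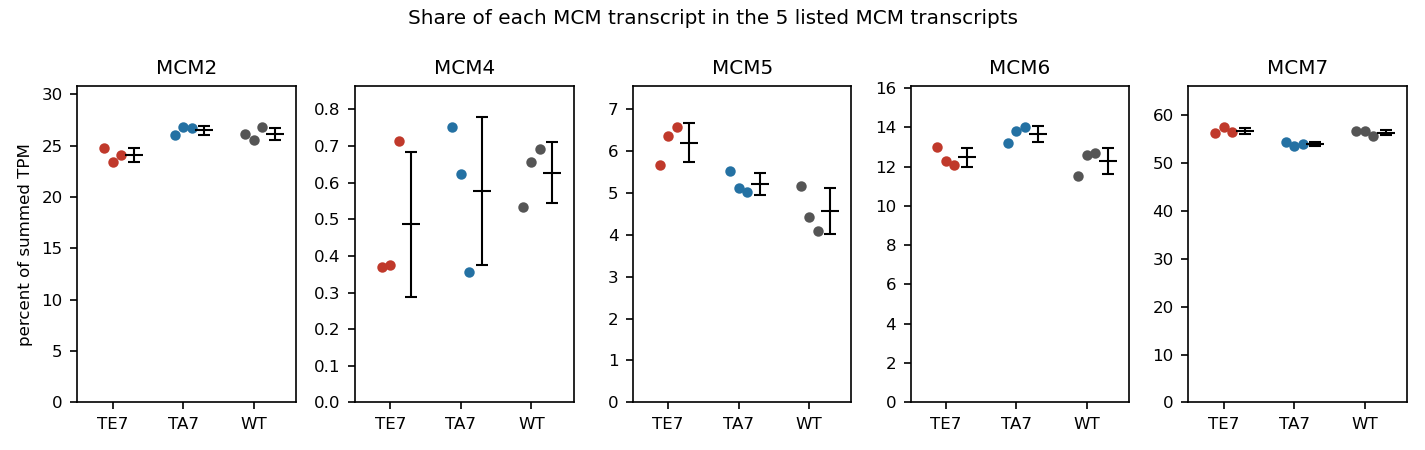
Percent of the summed TPM of the 5 listed MCM transcripts (y axis, from 0, its own scale in each panel) held by each, by library (points), with the mean and SD beside them (n = 3). MCM2 is lowest in TE7, at 23.4% to 24.8%, and MCM5 highest in TE7, at 5.67% to 6.56%. MCM7 is lowest in TA7, at 53.6% to 54.5%, and MCM6 highest in TA7, at 13.2% to 14%.

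PCNA encodes the sliding clamp. Its main transcript (ENST00000379143, 1276 bases) was at 262, 217 and 242 TPM in TE7, at 247, 267 and 259 TPM in TA7, and at 244, 209 and 231 TPM in WT. TE7 overlapped with both other groups. The log2 change in TE7 vs WT was 0.16 ± 0.12 (SE), with a 95% interval of -0.12 to 0.43 and an edgeR adjusted p of 0.473. Without WT replicate 1, which at 229 CPM stood above the other WT libraries at 170.5 and 177 CPM, it was 0.31 with an edgeR adjusted p of 0.0491, just inside the threshold. With both listed PCNA transcripts summed it was 0.13 ± 0.11 (SE), with an edgeR adjusted p of 0.541 and a 95% interval of -0.13 to 0.39. Without WT replicate 1 the sum was at 0.27 with an edgeR adjusted p of 0.0574, and it was not called.

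The second PCNA transcript (ENST00000379160, 1359 bases) was at 10.9, 11.8 and 12.4 TPM in TE7, at 13.4, 12.9 and 17.4 TPM in TA7, and at 14.2, 14 and 17.8 TPM in WT. Each TE7 library lay below every library of the other groups in TPM. Its log2 change in TE7 vs WT was -0.3 ± 0.13 (SE), with an unadjusted p of 0.0545 and an edgeR adjusted p of 0.208. Its share of the TPM of the pair was 3.99%, 5.14% and 4.88% in TE7, 5.14%, 4.59% and 6.3% in TA7, and 5.5%, 6.27% and 7.15% in WT. The TE7 and WT shares did not overlap, with exact two-sided permutation p = 0.1, the smallest possible for 3 against 3 libraries. Adjusted over the 6 such tests of PCNA and RRM2, it was 0.45.

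WT replicate 1 had the highest CPM of the 9 libraries for MCM2, at 218 CPM, for MCM7, at 334 CPM, and for TYMS, at 163 CPM. It had reads for the fewest transcripts, 87229 against 95401 to 99993 in the others. Its TMM factor, 0.92, was the lowest, against 0.971 to 1.04 in the others. In TPM, which does not use that factor, WT replicate 1 was not the highest for MCM2, at 65.4 against 67.5 in WT replicate 3, but it was still the highest for MCM7, at 142 against 140.2 in WT replicate 3, and for TYMS, at 124 against 120 TPM in WT replicate 3. On the CPM scale RRM1 in WT replicate 1 was in the middle of WT, at 214.6 against 193.9 and 224.1, and without it the log2 change of RRM1 in TE7 vs WT was -0.93, with an edgeR adjusted p of 0.0011. The 11 transcripts together held 0.122% to 0.132% of the estimated reads in TE7, 0.141% to 0.142% in TA7 and 0.128% to 0.145% in WT. TE7 and WT overlapped in this share.

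After each group's mean was taken off, the median Pearson correlation of log2(CPM + 1) between members was 0.35 over 55 pairs, with a range of -0.36 to 0.94, over 9 libraries that share depth and scaling. The same was not computed for other transcripts, so this does not set the members apart. Among 3681 other transcripts of at least 50 CPM, the nearest to the mean standardised profile of the members were ENST00000351288.10_4, at r = 0.96, and ENST00000620941.1_1, at r = 0.922, over the 9 libraries. The first averaged 62 CPM in TE7, 68 CPM in TA7 and 65.3 CPM in WT. The tables pair neither with a gene. Both were picked as the highest of 3681 correlations over 9 libraries, so their r values are no test of a link to the members.

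In RefSeq, AP4M1 and 3 microRNA genes overlap MCM7, ENOSF1 and TYMSOS overlap TYMS, PCNA-AS1 and a snoRNA gene overlap PCNA, a lncRNA gene overlaps MCM2, and a lncRNA, a snoRNA and a microRNA gene overlap RRM2. No gene of that table overlaps RRM1, MCM4, MCM5 or MCM6. Whether reads were assigned by strand is not given in the sources used here, so reads of overlapping genes could enter the values of MCM2, MCM7, PCNA, RRM2 and TYMS. Reads of RRM1 could be shared with its other transcripts, which the tables do not name. A shift of reads between RRM1 transcripts and a lower total of RRM1 mRNA cannot be told apart in the listed transcript alone.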

How the data were processed

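Messenger RNA of 9 HCT116 libraries was analysed, out of 57 samples; the other 48 were not used here. The submitters' processing notes name cutadapt 2.3, Salmon 1.3.0 and genome build hg19. For the transcript set, the library type and any bias correction, the entry is: not given in the sources used here. The deposited estimated counts (reads shared by transcripts are split between them by Salmon) carry no scaling, and they were rounded to whole numbers for the tests. The deposited TPM values correct for effective length and have a fixed total in every library. Lengths and effective lengths are in bases, per the file headers.

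All 9 libraries entered 1 edgeR 4.0.16 quasi-likelihood model with the 3 forms as groups, TMM scaling and its default filter on low counts. P-values were adjusted by Benjamini and Hochberg's method over 78478 transcripts, with a threshold of 0.05. Standard errors and 95% intervals come from its F statistics. Shares and ratios were compared with exact permutation tests. The model was tested on simulated data. Alternatives were DESeq2 1.42.0, limma 3.58.1 on log2(TPM + 1) or log2(TPM + 0.1), other scalings, filters and fits, and leaving out each library.

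The members and lists were chosen with earlier results of these data known. The rule for named genes took all 11 members and the 2 other transcripts of at least 50 CPM most like their mean profile. No table used here pairs transcript identifiers with genes, so other replication genes, Spt5 itself and markers of colon cells were not analysed here; the members' symbols come with the list. Nothing in the labels says that replicates came from separate cultures. The p-values therefore reflect the spread between these libraries, which may be technical.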

Additional observations from a re-analysis of the deposited data

How the results depend on the processing

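Of 780 comparisons of a member's log2 change with its value under 20 other settings, 777 stayed on the same side of the threshold, 3 became called and 0 lost a call. RRM1 had adjusted p of 3.32e-33 to 0.0126 in TE7 vs WT, 9.46e-23 to 0.0448 in TE7 vs TA7 and 0.46 to 0.945 in TA7 vs WT. Leaving out 1 library at a time gave 1 to 3 members called in TE7 vs WT, with 3 (RRM1, MCM5 and the main PCNA transcript) without WT replicate 1. Over all transcripts, 5363 were then called higher and 4539 lower of 84939, beside 3603 and 3775 of 78478 with all libraries. Without WT replicate 1 and TA7 replicate 1, a setting chosen after seeing the data, 2 were called, with MCM5 at 0.61 and an adjusted p of 0.00913. Over all transcripts that setting called 5381 higher and 4514 lower of 83377. The replicate numbers were not taken to pair the samples, since not every correlation of same-numbered libraries was over 0.1 (5 of 9 were, with a range of -0.114 to 0.306). As a hint from the data, 6 of 9 libraries correlated best with their own number, so partial pairing is possible. With the replicate block, 1, 0 and 1 members were called in TE7 vs WT, TA7 vs WT and TE7 vs TA7, and RRM1 had -0.94 with an adjusted p of 0.00409 against WT and -0.79 with 0.0182 against TA7. Over all transcripts that block left 2561 higher and 2752 lower in TE7 vs WT, 0 and 0 in TA7 vs WT, and 372 higher and 725 lower in TE7 vs TA7, beside 3603 and 3775, 32 and 16, and 1011 and 1400 without it; DESeq2 gave 7575 and 7961, 1166 and 895, and 4749 and 5610.

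Signs turned 38 times, only for changes that were not called, and the cause was not tested. With limma on log2(TPM + 1) and on log2(TPM + 0.1) alike, the log2 change was -0.04 for MCM6, -0.08 for the main RRM2 transcript and -0.07 for summed RRM2 in TE7 vs WT, 0.05 for MCM2 in TA7 vs WT, and -0.03 for MCM7, -0.10 for the main PCNA transcript and -0.11 for summed PCNA in TE7 vs TA7. On the second of these scales the median of all transcripts in TE7 vs TA7 was -0.125, beside -0.02. With library size alone it was 0.003 for MCM2 in TA7 vs WT, and -0.02 for the main PCNA transcript and -0.03 for summed PCNA in TE7 vs TA7. With the effective length offset it was -0.03 for the main RRM2 transcript and -0.01 for summed RRM2 in TE7 vs WT, and with no filter 0.0009 for TYMS in TE7 vs TA7. Without WT replicate 1 and TA7 replicate 1 it was 0.07 for MCM7 in TE7 vs WT, 0.04 for MCM2 in TA7 vs WT and 0.04 for MCM4 in TE7 vs TA7. Leaving out 1 library at a time, TE7 vs WT ran from -0.02 to 0.1 for MCM6, -0.12 to 0.07 for MCM7, -0.06 to 0.15 for the main RRM2 transcript and -0.05 to 0.16 for summed RRM2. TA7 vs WT ran from -0.14 to 0.05 for MCM2 and -0.42 to 0.11 for MCM4, whose value without WT replicate 1 and TA7 replicate 1 together kept its sign, at -0.43. TE7 vs TA7 ran from -0.6 to 0.05 for MCM4, -0.03 to 0.1 for the main PCNA transcript, -0.04 to 0.08 for summed PCNA and -0.03 to 0.03 for TYMS. With reads per base in place of TPM, the MCM6 share was 11.4% in TE7, 12.3% in TA7 and 10.8% in WT, and the MCM2 share 25% in TE7, 27.5% in TA7 and 27.2% in WT. On that scale the highest MCM6 share in TE7 and the lowest in TA7 were both 12%. MCM4 had the fewest reads, 190 to 438 per library, and the largest SE in TE7 vs WT, 0.35; the part of depth in it was not tested.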
